A study of Mus musculus with 43 samples.

Results

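The glucose and fructose transporters described here are 9 genes, chosen by their symbols from the 54532 genes of a deposited expression table: the sodium-coupled carriers Slc5a1, Slc5a2, Slc5a9 and Slc5a10, and the facilitative carriers Slc2a1, Slc2a2, Slc2a4, Slc2a5 and Slc2a8. Their mRNA was measured by RNA-seq in S1, S2 and S3, the successive parts of the proximal tubule, microdissected from kidneys of female C57BL/6 mice aged 6 to 8 weeks. Each library was made from 2 to 5 tubules, and the mice carried no labelled allele or treatment. The table gives 1 value per gene and segment, for which the labels list 6 S1 libraries, 6 S2 libraries and 7 S3 libraries. Read as animals, the numbers in the library titles put 2 mice behind S1, 3 behind S2 and 4 behind S3. The unit is TPM, a measure of transcript abundance that is scaled for transcript length and to a fixed total, so levels of different genes can be set side by side. With 1 value per segment no difference below has a replicate check, an error or a p-value. Male samples and chromatin accessibility were not analysed here.

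Glucose filtered at the glomerulus is taken back in the proximal tubule. Carriers of the SLC5 family (SGLTs) in the apical brush border move sugar into the cell together with sodium, along the sodium gradient that the basolateral sodium pump maintains. Carriers of the SLC2 family (GLUTs) need no sodium and let sugar pass down its own gradient, for glucose mainly out of the cell across the basolateral membrane. SGLT2 is known as the low-affinity, high-capacity glucose carrier of the early tubule and SGLT1 as the high-affinity carrier further along, while SGLT4, SGLT5 and GLUT5 carry mainly fructose or mannose.

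The S1 and S3 markers set S1 apart from both other segments. The S2 markers and most S1 markers set S2 apart from S3, while the S3 markers did so less clearly. In S1, 4 of 4 S1 markers exceeded both other segments by 2-fold or more, and 4 of 4 S3 markers were below both by as much. In S2, 3 of 3 S2 markers exceeded S3 by 2-fold or more, with a median of 6.77 for S2 minus S3, and 2 of 3 exceeded S1. Of the S1 markers, 3 of 4 were higher in S2 than in S3 by 2-fold or more, with a median of 4.82. Of the S3 markers, 0 of 4 differed 2-fold between S2 and S3, with a median of -0.78 for S2 minus S3. The 6 general proximal tubule markers were uneven: for S1 minus S3, 2 were higher past 2-fold (among them the phosphate carrier Slc34a1, at 10241 TPM in S1, 2227 TPM in S2 and 17 TPM in S3) and 2 lower (among them the water channel Aqp1, at 33, 383 and 561 TPM). The endocytic receptors Lrp2 and Cubn differed less than 2-fold. Markers of other cells were not equal: the 6 endothelial genes summed to 53.6 TPM in S1, 530 TPM in S2 and 217 TPM in S3, and the 6 immune genes to 5.4, 84.1 and 55.1 TPM. Of the immune sum, Csf1r alone was 0.5, 32 and 46.9 TPM, and it was the only one of these 6 past 2-fold for S1 minus S3. The 3 podocyte markers summed to 1.7, 14.3 and 3.5 TPM. Of the collecting duct list, Aqp3 was at 28.3 TPM in S1, 5.2 TPM in S2 and 0.1 TPM in S3 and Fxyd4 at 32.3, 7.4 and 0.9 TPM, while its defining gene Aqp2 stayed at or below 0.5 TPM. Umod of the thick ascending limb was at 0.2, 21.1 and 29.1 TPM, and Slc12a1 of the same cells at or below 1 TPM. The part of these cells in the carriers' values was not tested, and in pooled tubules fewer cells with a transcript and less of it per cell cannot be told apart. By the numbers in the titles, read as animals, S1 and S2 shared 0 animals, S1 and S3 shared 2, and S2 and S3 shared 2, so segment and animal cannot be told apart for S1 and S2.

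The promoters of 4 members that differed 2-fold both from S1 to S2 and from S1 to S3 are shown first, so that members with like segment patterns can be compared by sequence. Promoter sequences were matched for 6 of the 9 members and not for Slc5a2, Slc5a9 and Slc2a4. They come from RefSeq on GRCm38.p6, each reaching from 250 bases before a transcription start to 50 bases after it, written 5′ to 3′ along the gene. Slc5a1 (chr5:33103969-33104268, plus strand) and Slc5a10 (chr11:61720750-61721049, minus strand) were low in S1 and high in S2 and S3. Slc2a2 (chr3:28697653-28697952, plus strand) and Slc2a8 (chr2:32982034-32982333, minus strand) were highest in S1 and lower in each later segment. Capitals mark the HNF4 core CAAAGT, in either orientation. HNF4 proteins are transcription factors of the kidney tubule, liver and gut.
Slc5a1: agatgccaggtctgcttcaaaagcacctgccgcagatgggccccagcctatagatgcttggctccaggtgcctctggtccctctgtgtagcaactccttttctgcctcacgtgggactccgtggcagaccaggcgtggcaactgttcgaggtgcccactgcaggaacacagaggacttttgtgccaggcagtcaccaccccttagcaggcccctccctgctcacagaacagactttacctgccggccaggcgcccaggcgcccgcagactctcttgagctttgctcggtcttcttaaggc
Slc5a10: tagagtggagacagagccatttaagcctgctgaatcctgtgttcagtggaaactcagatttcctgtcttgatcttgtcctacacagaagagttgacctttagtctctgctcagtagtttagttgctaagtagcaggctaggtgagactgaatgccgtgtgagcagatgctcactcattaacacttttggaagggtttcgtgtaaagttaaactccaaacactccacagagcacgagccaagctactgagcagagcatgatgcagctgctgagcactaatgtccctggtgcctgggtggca
Slc2a2: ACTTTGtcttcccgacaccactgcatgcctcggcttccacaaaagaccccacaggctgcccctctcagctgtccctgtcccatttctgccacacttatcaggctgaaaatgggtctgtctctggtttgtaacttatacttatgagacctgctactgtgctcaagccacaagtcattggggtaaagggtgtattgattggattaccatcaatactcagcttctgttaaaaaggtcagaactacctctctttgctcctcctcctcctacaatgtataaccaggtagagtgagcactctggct
Slc2a8: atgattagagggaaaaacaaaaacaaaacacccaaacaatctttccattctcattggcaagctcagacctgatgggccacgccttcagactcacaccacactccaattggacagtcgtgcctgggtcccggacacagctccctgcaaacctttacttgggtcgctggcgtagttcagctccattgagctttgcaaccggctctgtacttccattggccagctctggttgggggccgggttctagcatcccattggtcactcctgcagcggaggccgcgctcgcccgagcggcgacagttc
The motif was searched on both strands. The HNF4 core stood once in Slc2a2, at the far edge of the window 250 bases before the start, and 14.4% of all 32851 promoters in the table hold it. It was not found in the windows of Slc5a1, Slc2a8, Slc2a1 or Slc2a5, or at the first Slc5a10 start or a second one (chr11:61719936-61720235, minus strand). A match is a stretch of letters and not a measured site.

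Base composition varied between these starts. Slc2a2 held 2 CpG dinucleotides and the first Slc5a10 sequence 3, against a median of 7 over all promoters, and 85.9% and 76.7% of promoters held as many or more. Slc5a1 held 10, Slc2a8 held 14, Slc2a5 held 15 and Slc2a1 held 18. Slc2a1, the GLUT1 gene that most tissues use, and Slc2a5, the fructose carrier, thus had the most. The GC content was 65.3% for Slc2a1 and for Slc2a5, 48% for Slc2a2, and 47.7% at the first Slc5a10 start and 53.7% at its second, which held 6 CpG dinucleotides, with a median of 52.7% for all promoters.

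Along the tubule, the carriers split between steep gradients in both directions and near-even levels. Of the 9, 8 reached 1 TPM in at least 1 segment and were compared, as did 16053 genes of the table. Differences were taken on the log2(TPM + 1) scale, where the pseudocount of 1 makes changes of low genes look smaller, and 2-fold is a difference of 1 on it. Slc5a2, Slc2a2 and Slc2a8 were highest in S1, Slc2a5 was highest in S2, and Slc5a1, Slc5a9, Slc5a10 and Slc2a1 were highest in S3. Those counts of 3, 1 and 4 stand beside 35.4%, 36.4% and 26.4% of all genes compared that had their single highest value in S1, S2 and S3.

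**Figure D1:**
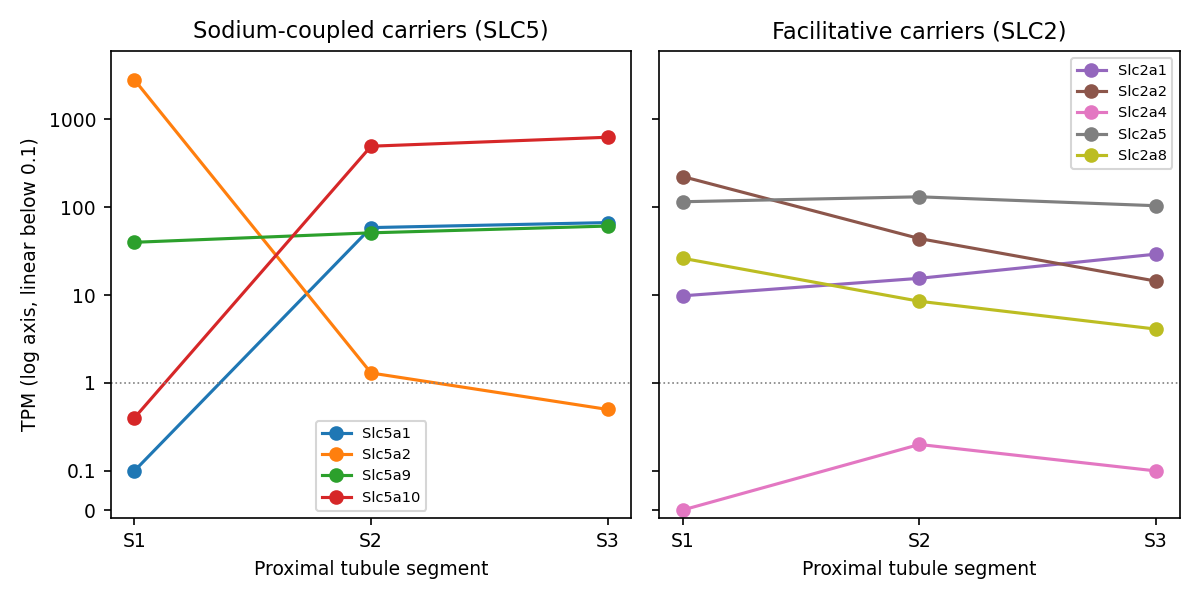
TPM of each carrier in S1, S2 and S3 on a log axis that is linear below 0.1, SLC5 genes on the left and SLC2 genes on the right, 1 deposited value per point and a dotted line at 1 TPM. Slc5a2 lies at 2808 TPM in S1 and at 1.3 and 0.5 TPM in S2 and S3, Slc5a10 and Slc5a1 run the other way, and Slc5a9 and Slc2a5 stay nearly level.

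Slc5a2 (ENSMUSG00000030781, chromosome 7, 128265683 to 128272430, GRCm38.p6) encodes SGLT2. It was at 2808 TPM in S1, 1.3 TPM in S2 and 0.5 TPM in S3. S1 was the one segment with a high level, and there the gene ranked 44 among all genes of the table, against 13457 in S2 and 14668 in S3. The difference was 10.25 on the log2 scale for S1 minus S2 and 10.87 for S1 minus S3. Deposited values are rounded to 1 decimal, and this rounding alone allows ratios of 2080 to 2247 for S1 over S2 and of 5106 to 6240 for S1 over S3. Between S2 and S3 the difference was 0.62, less than 2-fold on this scale, with both values near the filter.

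Slc5a1 (ENSMUSG00000011034, chromosome 5, 33104219 to 33162699) encodes SGLT1, which also takes up glucose and galactose in the small intestine. It was at 0.1 TPM in S1, 58.5 TPM in S2 and 66.7 TPM in S3. S2 and S3 were alike, with a difference of -0.19, and S1 was lower than both. The differences were -5.76 for S1 minus S2 and -5.94 for S1 minus S3. Because the S1 value has 1 digit, rounding allows a ratio of S2 over S1 between 389.7 and 1171 and of S3 over S1 between 444 and 1335.

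Slc5a10 (ENSMUSG00000042371, chromosome 11, 61672782 to 61720817) encodes SGLT5, a sodium-dependent carrier of mannose and fructose found mainly in kidney. It was at 0.4 TPM in S1, 492.8 TPM in S2 and 623 TPM in S3. This was the same order as for Slc5a1, at a level 8.42 times that of Slc5a1 in S2 and 9.34 times in S3. The differences were -8.46 for S1 minus S2, -8.80 for S1 minus S3, with -0.34 for S2 minus S3. Slc5a10 ranked 252 among all genes in S2 and 209 in S3. Fam83g, which overlaps it (61684058 to 61709950), went the other way with 22.6 TPM in S1, 4.5 TPM in S2 and 3.3 TPM in S3. The library protocol names no strand marking, so reads of overlapping genes could be assigned to either.

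Slc5a9 (ENSMUSG00000028544, chromosome 4, 111875374 to 111902796) encodes SGLT4, a carrier of mannose, glucose and fructose. It was at 39.8 TPM in S1, 51 TPM in S2 and 60.9 TPM in S3. The values increased in small steps, and no pair of segments differed 2-fold: the differences were -0.35 for S1 minus S2, -0.60 for S1 minus S3, with -0.25 for S2 minus S3. It was the only one of the 4 sodium-coupled members above 1 TPM in each of the 3 segments.

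Slc2a2 (ENSMUSG00000027690, chromosome 3, 28697903 to 28728361) encodes GLUT2, the low-affinity basolateral carrier through which glucose leaves the early tubule cell. It was at 222.7 TPM in S1, 43.9 TPM in S2 and 14.4 TPM in S3. Each segment was lower than the one before it. The differences were 2.32 for S1 minus S2, 3.86 for S1 minus S3, with 1.54 for S2 minus S3. It was the only member at least 2-fold apart in all 3 comparisons with a pseudocount of 1. With a pseudocount of 0.1, Slc5a2 and Slc2a8 were so too (1.22 and 1.03 for S2 minus S3). On the log2 scale S2 stood at 0.40 of the way from S3 to S1, whereas Slc5a2 in S2 stood at 0.0567.

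Slc2a1 (ENSMUSG00000028645, chromosome 4, 119108745 to 119137330) encodes GLUT1, the high-affinity carrier of many cell types and the basolateral partner of SGLT1 in the late tubule. It was at 9.8 TPM in S1, 15.5 TPM in S2 and 29.2 TPM in S3, an order opposite to that of Slc2a2. The differences were -0.61 for S1 minus S2, -1.48 for S1 minus S3, with -0.87 for S2 minus S3, so S1 against S3 alone passed 2-fold. With a pseudocount of 10 that difference was -0.99 and no longer did. Endothelial cells also use this gene. Between S1 and S3 the endothelial markers differed the same way, with 4 of 6 past 2-fold (13.1% of all genes compared). Their median was -1.52, against -0.01 for all genes. The sum of the endothelial markers was highest in S2 (530 TPM), while Slc2a1 was highest in S3. The part of endothelial cells in the Slc2a1 difference was not tested.

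Slc2a8 (ENSMUSG00000026791, chromosome 2, 32972981 to 32982083) encodes GLUT8, a carrier held mostly on membranes inside the cell. It was at 26.2 TPM in S1, 8.5 TPM in S2 and 4.1 TPM in S3. Its order was that of Slc2a2 at a lower level. The differences were 1.52 for S1 minus S2, 2.42 for S1 minus S3, with 0.90 for S2 minus S3. With a pseudocount of 10 the first of these was 0.97, under 2-fold, and with 0.1 the last was 1.03, over it.

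Slc2a5 (ENSMUSG00000028976, chromosome 4, 150119344 to 150144168) encodes GLUT5, the fructose carrier of the intestinal and renal brush border. It was at 115 TPM in S1, 131 TPM in S2 and 103.7 TPM in S3. These were the most even values of the members compared, with a highest over lowest ratio of 1.26, against 1.53 for Slc5a9. The differences were -0.19 for S1 minus S2, 0.15 for S1 minus S3, with 0.33 for S2 minus S3. Its paralog Slc2a7 starts 4665 bases further along the chromosome and was at 0.5 TPM in S1, 0.1 TPM in S2 and listed at 0 in S3.

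Slc2a4 (ENSMUSG00000018566, chromosome 11, 69942286 to 69948216) encodes GLUT4, the insulin-responsive carrier of muscle and fat. It was listed at 0 in S1 and was at 0.2 TPM in S2 and 0.1 TPM in S3. It did not reach the 1 TPM filter, and at 1 decimal no order of the segments can be read from it. Markers of the tissues that use it were also low: the 3 skeletal muscle genes summed to 0.1 TPM in S1, 0.5 TPM in S2 and 0.2 TPM in S3, and the 4 adipocyte genes to 0.4, 2.5 and 4.9 TPM. Most of the adipocyte sum in S2 and S3 was Cidec (0.1, 1.7 and 4.7 TPM), and Adipoq was listed at 0 in each segment.

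For S1 minus S2, Slc5a2, Slc2a2 and Slc2a8 were higher by 2-fold or more (3 of 8 members, against 6.62% of all genes compared) and Slc5a1 and Slc5a10 lower by as much (2 of 8, against 17.7%). For S1 minus S3 the same 3 genes were higher (10.5% of all genes), and Slc2a1 joined Slc5a1 and Slc5a10 among the lower (3 of 8, against 13.1%). For S2 minus S3, Slc2a2 was the only member higher by 2-fold (1 of 8, against 8.74%) and 0 of 8 were lower (2.24% of all genes). So more members passed 2-fold wherever S1 was one of the segments, and by the shares given so did more of all genes compared. The members were picked for their role, and with 8 genes these shares describe them only.

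Medians hid this split. Over the 8 members the difference had a median of -0.27 for S1 minus S2, -0.23 for S1 minus S3, with 0.07 for S2 minus S3, beside -0.18, -0.01 and 0.12 for all genes compared. The 4 sodium-coupled carriers had medians of -3.05, -3.27 and -0.22 in the same order, and the 4 facilitative carriers that passed the filter had 0.67, 1.28 and 0.62. Quantile normalization moved the median of all genes by 0.25 for S1 minus S2 and by -0.17 for S2 minus S3. The share of higher genes among all genes past 2-fold was then 46.8% in place of 27.2% for S1 minus S2, and 61.6% in place of 79.6% for S2 minus S3. Each member kept its side of the 2-fold threshold under it.

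**Figure D2:**
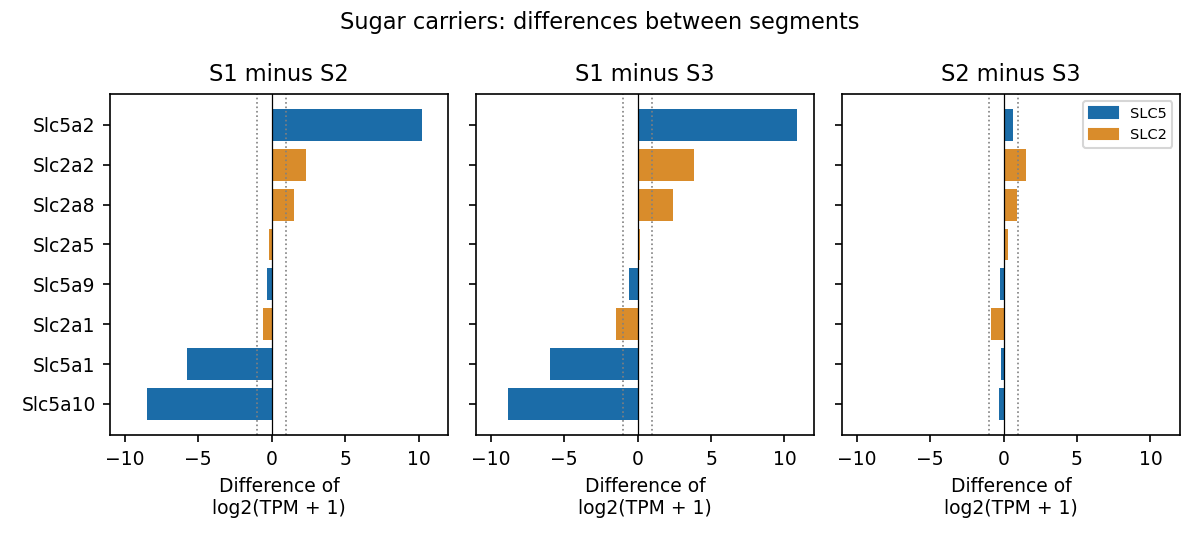
Difference of log2(TPM + 1) for the 8 carriers that reached 1 TPM, for S1 minus S2, S1 minus S3 and S2 minus S3. Bars right of 0 are higher in the first segment named, dotted lines mark 2-fold, and blue bars (SLC5) reach from -8.80 to 10.87 while orange bars (SLC2) stay between -1.48 and 3.86.

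Summed, the 4 sodium-coupled members were at 2848 TPM in S1, 604 TPM in S2 and 751 TPM in S3. Other SLC5 genes, such as Slc5a12 (376 TPM in S1) and Slc5a6 (206 TPM in S3), are not in this sum. The sum of the members changed in kind as well as in size. Slc5a2 made up 98.6% of it in S1, 0.215% in S2 and 0.0666% in S3. Slc5a10 accounted for 0.0140%, 81.6% and 82.9%. Slc5a1 took 9.69% in S2 and 8.88% in S3, and Slc5a9 took 1.40%, 8.45% and 8.11% in S1, S2 and S3. Of the summed mRNA of these members in S2 and S3, the larger part was therefore that of the mannose and fructose carrier SGLT5 and not of SGLT1. SGLT1 and SGLT2, the glucose carriers, together came to 2808 TPM in S1, 59.8 TPM in S2 and 67.2 TPM in S3. SGLT4 and SGLT5 together came to 40.2, 543.8 and 684 TPM.

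The facilitative members summed to 374 TPM in S1, 199 TPM in S2 and 151.5 TPM in S3. Slc2a2 held 59.6% of this sum in S1, 22.0% in S2 and 9.50% in S3. Slc2a5 held 30.8%, 65.8% and 68.4%, without a 2-fold change in its own level. Slc2a1 held 2.62%, 7.79% and 19.3%. Between the basolateral glucose carriers, Slc2a2 was at 22.7 times the level of Slc2a1 in S1, at 2.83 times in S2 and at 0.493 times in S3, so the order of the pair was turned in S3. Together they came to 232.5 TPM in S1, 59.4 TPM in S2 and 43.6 TPM in S3. The level of SGLT1 plus SGLT2 was 12.6 times that of Slc2a2 in S1, 1.36 times in S2 and 4.67 times in S3. Against Slc2a1 it was 287 times in S1, 3.86 times in S2 and 2.30 times in S3, so the change from S2 to S3 depends on the carrier compared. TPM are levels of mRNA and give no amount or activity of a carrier protein.

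**Figure D3:**
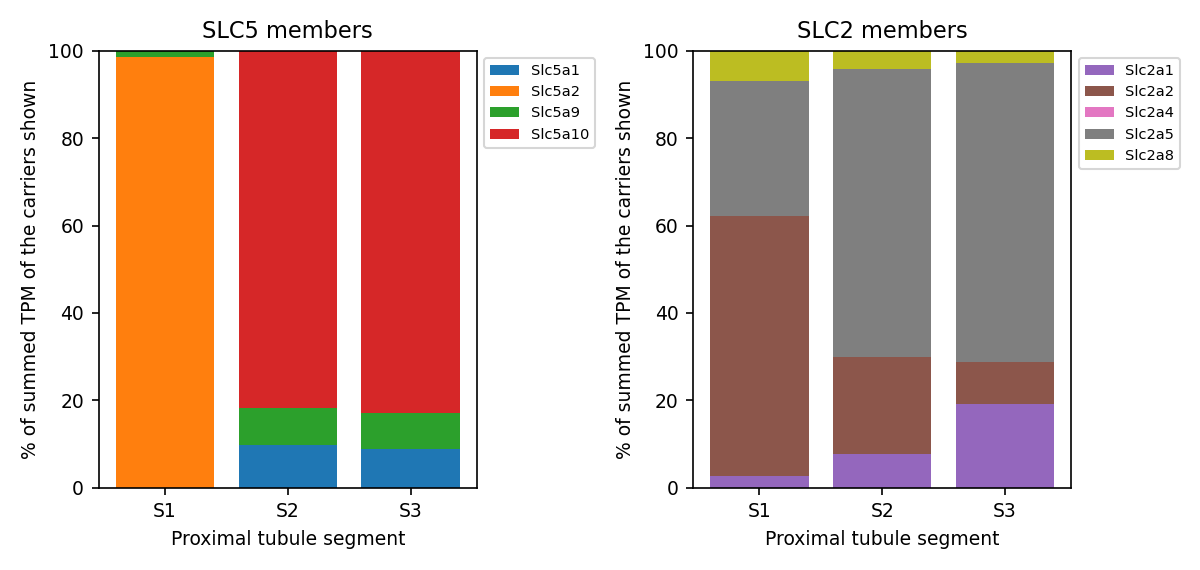
Share of each carrier in the summed TPM of the members from its family, in percent, for S1, S2 and S3. The 4 SLC5 members are on the left and the 5 SLC2 members on the right, and other genes of these families are not included. Slc5a2 fills 98.6% of the SLC5 bar in S1 and Slc5a10 81.6% and 82.9% in S2 and S3, while Slc2a2 takes 59.6% of the SLC2 bar in S1 and Slc2a5 the most in S2 and S3.

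Genes whose levels ran most like those of a carrier were sought by the Euclidean distance over the 3 log2(TPM + 1) values, which rests on n = 3 segments and on level as well as shape. For each of the 8 members that reached 10 TPM the 3 nearest genes were taken. Slc5a2 had no close match: its nearest genes, the phosphate carrier Slc34a3, the lactate carrier Slc5a12 and Acss1, which activates acetate, lay at distances of 2.83, 3.02 and 3.21. Nearest to Slc5a1 were Hopx, Car5a and Uroc1, the urocanate hydratase of histidine breakdown, at 0.18, 0.35 and 0.47. Nearest to Slc5a10 were the organic anion carrier Slc22a13 (0.21), the potassium channel Kcnk1 (0.59) and Cyp2a4 (0.68). Nearest to Slc2a2 were Gcat, which breaks down threonine products (0.37), Ifi27 (0.64) and Suclg2, a citrate cycle subunit (0.65). Slc2a8 lay nearest to Ggh (0.22), Nt5dc2 (0.35) and Gsn (0.37).

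The members with flatter profiles had nearer matches. Those of Slc5a9 were Cisd2, Rmdn3 and Pcif1 (0.08, 0.08 and 0.12). For Slc2a5 they were the splicing factor Srsf2, the RNA helicase Ddx5 and Gnai2 (0.12, 0.21 and 0.23), and for Slc2a1 the cholesterol esterifying enzyme Soat1, the histone gene Hist1h4i and Dr1 (0.17, 0.24 and 0.24).

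Relatives of the carriers were measured beside them. Of 16 further SLC2 and SLC5 genes, 7 reached 1 TPM. On the S1 side, past 2-fold against S3, were Slc5a12, a sodium-coupled lactate carrier (376 TPM in S1, 0.4 TPM in S2 and 0.1 TPM in S3), and Slc2a12, the glucose carrier GLUT12 (8.1, 1.4 and 0.5 TPM). On the S3 side were Slc5a8, the other sodium-coupled monocarboxylate carrier (listed at 0 in S1, 45.7 TPM in S2 and 48.2 TPM in S3), and Slc5a6, the multivitamin carrier (15.6, 74.3 and 206 TPM). Slc5a12 was thus high in S1 alone, as Slc5a2 was, and Slc5a8 in S2 and S3, as Slc5a1 was. The inositol carrier gene Slc5a11 was at 67.3, 64.4 and 36 TPM, and Slc2a9, the urate carrier GLUT9, at 2, 2.6 and 1.5 TPM. Over the 7 genes the S1 minus S2 median was -0.26 and the S1 minus S3 median 0.26.

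A list of 7 genes held partners of the sodium-coupled carriers and genes of the sodium gradient. Of these, 2 exceeded 2-fold towards S1 against S2 (6.62% of all genes compared) and 3 against S3 (10.5% of all). In the other direction 0 did so in either comparison (17.7% and 13.1% of all). Pdzk1ip1, which encodes MAP17, an accessory protein needed for SGLT2 activity, was at 3543 TPM in S1, 1081 TPM in S2 and 393 TPM in S3. It thus was still at 393 TPM in S3, where Slc5a2 was at 0.5 TPM, and its S1 minus S3 difference was 3.17. The apical exchanger gene Slc9a3, which trades sodium for protons, was at 52.5, 11.4 and 0.1 TPM. The pump regulator Fxyd2 was at 8026, 4821 and 3937 TPM, with 1.03 for S1 minus S3. The scaffold Pdzk1, the pump subunit Atp1b1, the scaffold Slc9a3r1 and Rsc1a1 differed less than 2-fold between S1 and S3, and Slc9a3r1, Atp1b1 and Rsc1a1 had lower values in S1 (-0.73, -0.05 and -0.74). The median difference of the list was 0.46 for S1 minus S2 and 0.35 for S1 minus S3.

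Enzymes that act on the carried sugars were split in the same table. Of 7 genes for fructose, mannose and sorbitol, 2 passed 2-fold towards S1 and 1 towards S3 when these ends were compared, beside 10.5% and 13.1% of all genes, and the median was -0.09. Khk, the ketohexokinase that commits fructose to breakdown, was at 509 TPM in S1, 1222 TPM in S2 and 1365 TPM in S3, lower in S1 than in both others (-1.26 and -1.42). The sorbitol pathway was higher in S1: Akr1b3, the aldose reductase that makes sorbitol from glucose, was at 20.4, 3.9 and 1.1 TPM, and Sord, which oxidises sorbitol to fructose, at 1548, 527 and 278 TPM. Tkfc, Glyctk, Mpi and Pmm2 differed less than 2-fold between S1 and S3.

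Of 8 genes listed for glucose production, release and phosphorylation, 5 reached 1 TPM, and 3 of them passed 2-fold towards S1 and 1 towards S3 (10.5% and 13.1% of all genes), around a median of 1.08. G6pc, whose enzyme frees glucose for export, was higher in S1 than in S3, as Slc2a2 was (5.01 and 3.86 for S1 minus S3), and so was Slc37a4, which feeds it (2.39). Fbp1 passed 2-fold narrowly (1.08), at 4628 TPM in S1, 2405 TPM in S2 and 2182 TPM in S3. Pck1 did not (0.36), at 2105, 2136 and 1638 TPM. Hk1, the hexokinase that traps glucose, was at 0.5 TPM in S1, 7.4 TPM in S2 and 15 TPM in S3, in the order of Slc2a1. Hk2, Hk3 and Hkdc1, of the same enzyme family, stayed under 1 TPM in each segment.

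Of 6 regulators, 1 passed 2-fold towards S1 and 2 towards S3, around a median of -0.48 for S1 minus S3, beside 10.5% and 13.1% of all genes. For S1 minus S2, 1 was higher and 3 were lower (6.62% and 17.7% of all genes), around a median of -0.81. The lower ones were Hnf4g, Txnip and Mlxipl. Mlxipl was at 44.7 TPM in S1, 133.7 TPM in S2 and 71.9 TPM in S3 (-1.56 for S1 minus S2). Hnf4a was at 112 TPM in S1, 117 TPM in S2 and 136 TPM in S3, so it did not follow Slc5a2. Hnf4g was at 1, 5.5 and 3.4 TPM, with -1.14 for S1 minus S3. Txnip, which promotes removal of GLUT1 from the cell surface, was at 16.8, 94.8 and 40.9 TPM (-1.24). Ppargc1a, the coactivator of energy metabolism, was highest in S1 as Slc2a2 was, at 53.7, 14.2 and 3.7 TPM (3.54).

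**Figure D4:**
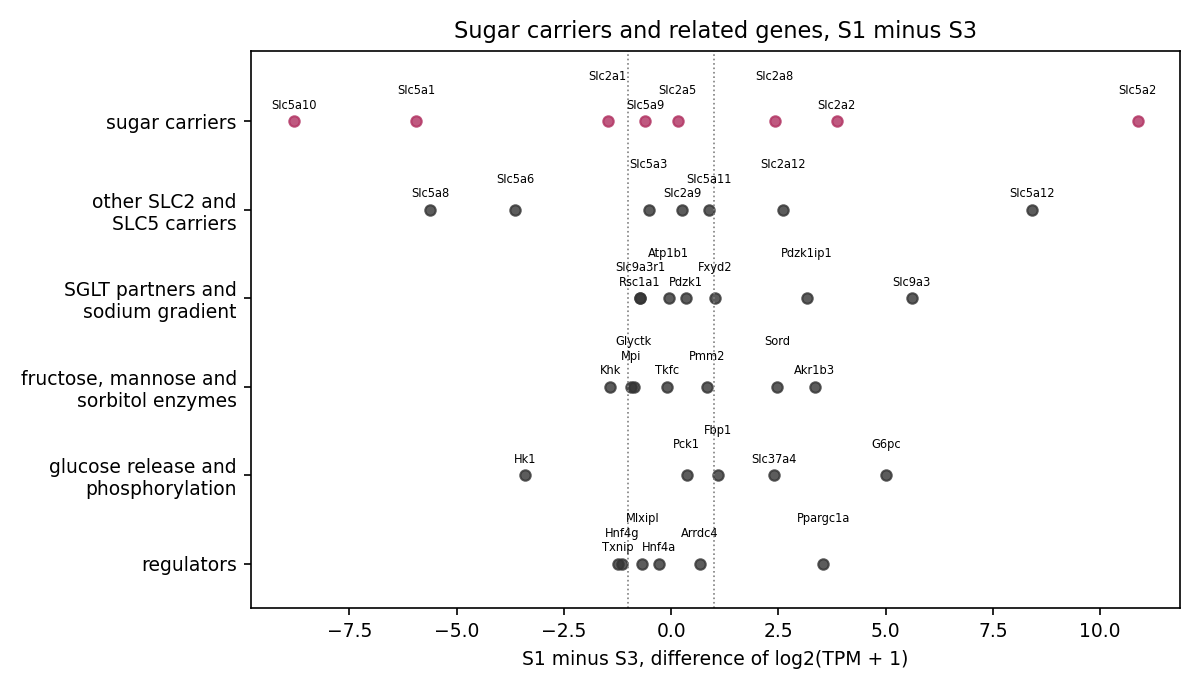
S1 minus S3 difference of log2(TPM + 1), 1 point per gene that reached 1 TPM, for the sugar carriers in the top row and 5 lists of related genes below. Dotted lines mark 2-fold, and points to the right are higher in S1. Slc5a2 (10.87) and Slc5a12 (8.42) lie far right, and Slc5a10 (-8.80) and Slc5a1 (-5.94) far left. Of the 7 partner and sodium gradient genes, 3 lie right of the upper dotted line and 0 left of the lower one.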

How the data were processed

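RNA-seq of microdissected female proximal tubules, 19 libraries, was deposited by the authors as TPM, with 1 value per gene and segment, rounded to 1 decimal. Per the submitters' processing notes the build was mm10, and the tools named were STAR, RSEM, cutadapt, Bowtie2, Picard, SAMtools and MACS2. Their roles, the gene annotation and how libraries were combined are not given in the sources used here. Per the labels' protocols, cDNA came from a SMARTer V4 kit and libraries from Nextera XT, with no molecular identifiers or strand marking named. Of its 8 value columns, 5 matched no labelled RNA-seq group and were left out. TPM keeps no depth, so depth is unknown.

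Genes that reached 1 TPM in any segment were compared by their difference of log2(TPM + 1), with a threshold of 2-fold and no test. Had the table held values per library, limma would have been used. The fold calls alone were tested, on the deposited columns with simulated noise and changes of known size added. The members, gene lists and motif were chosen with earlier results of these data known. All members are named, and list genes mainly where they differ 2-fold. A few list genes and a motif were left out of every count and are not reported here. Likeness left out provisional symbols (Gm numbers and Rik), mitochondrial genes and genes under 300 bases. The alternatives were pseudocounts, filters, thresholds, 3 scalings and rounding. Coordinates are 1-based, from RefSeq on GRCm38.p6, the assembly named mm10. Analyses used Python 3.11.15 and pandas 2.3.3.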

Additional observations from a re-analysis of the deposited data

How the results depend on the processing

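Each of the 24 differences of single members kept its side of the 2-fold threshold under median-of-ratios scaling and quantile normalization. The same held for removal of mitochondrially encoded genes, Gpx3 and Kap, and for rounding intervals at their closest. Filters of 5 TPM or none leave the values of these members unchanged, so they could not move a difference. None reversed under any alternative run, and only the 3 scalings could have reversed one. The S2 minus S3 count of members at least 2-fold higher, which is 1, was 3 with a pseudocount of 0.1 (Slc5a2 at 1.22 and Slc2a8 at 1.03 joined), 3 at a threshold of 1.5-fold and 0 at one of 4-fold. At 1.5-fold, 1 member was lower in S2 than in S3 (Slc2a1). With no filter on low values 2 members were highest in S2, Slc2a4 being the added one. With a pseudocount of 10, Slc2a8 for S1 minus S2 and Slc2a1 for S1 minus S3 missed the threshold (0.97 and -0.99). These changes follow from how each alternative is built. No paired analysis was possible because the table holds 1 value per segment, and for the same reason no replicate could be left out. Values under 1 TPM carry 1 digit, so ratios against them are known only within their rounding.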

Other observations

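The surroundings of the carriers on their chromosomes were measured too. Beside Slc5a2, Tgfb1i1, 9983 bases away, was at 1 TPM in S1, 4.3 TPM in S2 and 1.4 TPM in S3. On its other side Rgs10, 101190 bases away, was at 1.6, 2.3 and 1 TPM. Neither shared the level of Slc5a2 in S1. Rusf1 overlaps Slc5a2 from 128271379 on chromosome 7, but no level could be matched to it, so it was not compared. On chromosome 11, Grap lies 4 bases from Slc5a10, at its 3′ end, since Slc5a10 is read from the minus strand. Grap was at 1.3 TPM in S1, 10.5 TPM in S2 and 6.7 TPM in S3. Prpsap2, on the side of the Slc5a10 starts, was at 6.5, 7.9 and 8.9 TPM. Beside Slc5a1, Ywhah was at 44, 43.2 and 48.7 TPM. Slc2a2 is overlapped by the long noncoding RNA gene 1700112D23Rik, which was at 3.4, 1.6 and 2.1 TPM. The closest coding gene after Slc2a4, Cldn7, which encodes a tight junction claudin, was at 2.2 TPM in S1, 36.5 TPM in S2 and 89.3 TPM in S3.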
